A study of Mus musculus with 4 samples.

Results

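Serine/threonine protein phosphatase subunits are the catalytic, scaffold and regulatory proteins of the enzymes PP1, PP2A, calcineurin, PP4, PP5 and PP6. Members were the protein-coding mouse genes with a symbol of the form Ppp1 to Ppp6 followed by c (catalytic) or r (regulatory), 74 genes among the 53465 identifiers of the count table. The pattern is one of names and sets no threshold on measured values. The samples were polyadenylated RNA of MLE-12 cells, a line of immortalized lung epithelium from the mouse, sequenced from cells given 5 µM 1-nitropyrene, a nitrated aromatic hydrocarbon of diesel exhaust, for 12 h (2 libraries, replicates 2 and 3) and from cells cultured without it (2 control libraries, replicates 1 and 2). Both groups came from the same line with no other stated treatment, and no label says that the libraries were separate cultures, so the p-values measure only the spread between these libraries, which may be technical.

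These enzymes remove phosphate from serine and threonine and so oppose protein kinases. A small set of catalytic subunits does the chemistry, and a large set of regulatory subunits decides where each one acts. PP1 binds its regulators through short docking motifs. PP2A joins a catalytic subunit, a scaffold and an exchangeable B subunit. Calcineurin needs calcium and calmodulin and is known for activating NFAT. PP4 and PP6 carry their own regulators, and PP5 holds its regulatory domain within the same chain. Lung epithelial cells use PP1 and PP2A in the control of myosin, cell division and stress signalling.

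The libraries held 8797502 and 8601825 counts with 1-nitropyrene and 10773733 and 6908055 counts in control. Not all of the profile went with the label: all 6 epithelial markers examined, among them Krt8 and Cdh1, were listed at 0 in all 4 libraries, and so were 6 of 9 alveolar type 2 markers. Most of the counts of that second list lay in Abca3 (83 and 69 with 1-nitropyrene, 109 and 56 in control). The 6 fibroblast markers summed to 1.48 and 1.05 CPM (counts relative to the library total) with 1-nitropyrene and to 6.40 and 3.47 CPM in control. The 4 endothelial and 4 leukocyte markers summed to between 0 and 2 counts in each library. Cytosolic ribosomal protein genes, which every cell uses, had a median of only 5.5 and 6 counts with 1-nitropyrene and 10 and 4.5 counts in control. A count of 0 is therefore described below as a listed 0, not as a silent gene. Whether the table holds all the RNA of these cells was not tested, so each value is a level in this table. The part of these features in the results was not tested.

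Of the 74 members, 43 passed the filter on low counts and were tested, 8 had counts below it and 23 were listed at 0 in every library. Relative to control, 9 of the 43 rose and 2 fell at an adjusted p under 0.05 (edgeR, adjusted over 7738 genes). Those that rose were Ppp5c, Ppp4r1, Ppp2cb, Ppp6r3, Ppp4c, Ppp3ca, Ppp1r14b, Ppp2r2d and Ppp2r1a. Those that fell were Ppp1r9b and Ppp1r12a. In bulk RNA, fewer cells of a kind and less RNA per cell cannot be told apart. The share of members called, 25.6%, lay near the 24.5% called among all genes tested, where 13.2% rose and 11.2% fell. At mean levels of 10 CPM or more, 32.4% of 34 members were called (9 higher, 2 lower), against 34.3% of all such genes (19.8% higher, 14.4% lower). Both treated libraries lay above both controls for 22 members and below them for 10, that is for 32 of 43, against 30.0% above and 29.2% below, or 59.2%, of all genes tested. At an unadjusted p under 0.05 there were 18 of 43 members (41.9%), against 34.3% of all genes. At mean levels of 10 CPM or more that share was 52.9% of members, against 44.6% of all such genes. The share called in this fit was thus near the background. The shares without overlap and at an unadjusted p lay above it, with no test of those differences. The account that follows is of single genes. Their median log2 fold change was 0.06, against 0.00 over all genes tested.

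Under other settings the counts of members are set beside the share of all genes called in the same way. Without library scaling, in DESeq2, in limma-voom, at an adjusted p under 0.01 and with protein-coding genes only, 43 members were tested. In each of these settings the called members made up a larger share of the 43 than the called genes did of all genes. Those differences were not tested. Other filters and left-out libraries can change the number of members tested. Without library scaling 9 members rose and 4 fell, against 11.2% and 13.1% of all genes (24.4% in all). With RLE scaling 9 rose and 3 fell, against 996 and 874 of all 7738 genes. Upper quartile scaling also gave 9 and 3, against 928 and 907. With every gene of at least 1 count tested, 8 rose and 1 fell, against 6.26% and 4.37% (10.6%). A fit limited to genes averaging 10 CPM or more gave 9 and 4, against 17.8% and 17.1% (34.9%). DESeq2 gave 6 and 1, against 6.64% and 4.08% (10.7%), and limma-voom gave 9 and 1, against 12.1% and 9.60% (21.7%). At an adjusted p under 0.01 there were 9 and 1, against 9.74% and 7.34% (17.1%), and with protein-coding genes only 12 and 1, against 13.9% and 12.0% (25.9%). Leaving out control replicate 1 gave 9 and 2, against 8.74% and 6.47% (15.2%), and leaving out control replicate 2 gave 8 and 1, against 9.51% and 7.49% (17.0%). Leaving out 1-nitropyrene replicate 2 gave 11 and 2, against 10.8% and 8.08% (18.9%), and leaving out 1-nitropyrene replicate 3 gave 8 and 1, against 10.6% and 8.11% (18.7%).

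**Figure D1:**
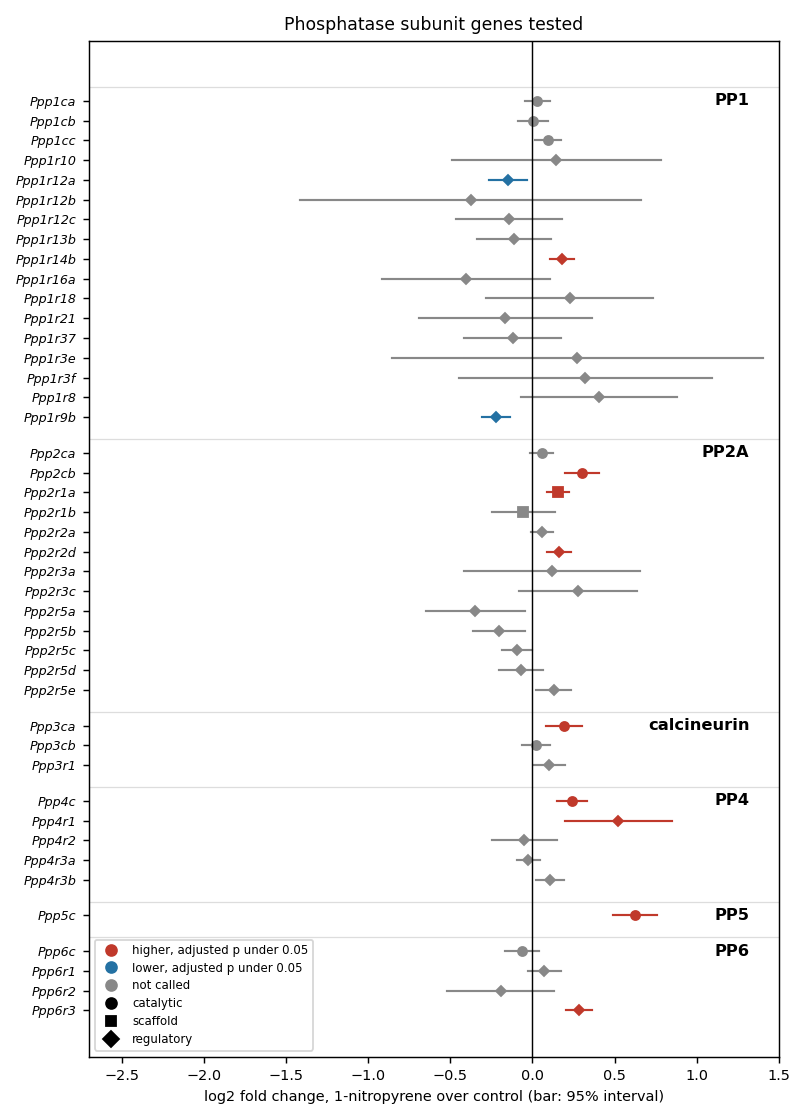
Log2 fold change with 1-nitropyrene over control for each of the 43 phosphatase subunit genes tested, ordered by enzyme, with the 95% interval as a bar and the subunit's role as the symbol. Ppp5c stands farthest to the right among the called genes, and the wide bars belong to genes of few counts.

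Catalytic subunits were well represented, with 10 of 11 tested. Of these, 4 rose and 0 fell, against 13.2% and 11.2% of all genes, and 5 had an unadjusted p under 0.05, against 34.3%. All 10 averaged above 10 CPM. Among all genes averaging 10 CPM or more, 19.8% rose, 14.4% fell and 44.6% had an unadjusted p under 0.05. Ppp3cc, the third calcineurin catalytic gene, had 11 and 7 counts with 1-nitropyrene and 9 and 6 counts in control and was not tested. Scaffold genes of PP2A gave 1 rise among 2, and regulatory genes 4 rises and 2 falls among 31.

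Promoter sequence is shown for the 3 called members of smallest p that have an entry, which include genes that changed in either direction. Each window runs from 250 bases before to 50 bases after a transcription start of RefSeq on GRCm38.p6. Capitals mark any match on either strand to 1 of 6 motifs. The GC box, which binds Sp factors, was searched as GGGCGG. The box bound by NF-Y was searched as CCAAT, and the core of ETS factor sites as CCGGAA. The TATA box was searched as TATAAA, and the E-box of the Myc kind as CACGTG. The NRF1 motif was a pair of GCGC half-sites with a gap of 2 bases. Matches can touch or overlap, as for the neighbouring GC boxes of Ppp5c, whose window is chr7:17027865-17028164 (minus strand). The Ppp6r3 window is chr19:3575700-3575999 (minus strand) and the Ppp1r9b window chr11:94990962-94991261 (plus strand), whose RefSeq start lies 177 bases from the GENCODE start.
Ppp5c: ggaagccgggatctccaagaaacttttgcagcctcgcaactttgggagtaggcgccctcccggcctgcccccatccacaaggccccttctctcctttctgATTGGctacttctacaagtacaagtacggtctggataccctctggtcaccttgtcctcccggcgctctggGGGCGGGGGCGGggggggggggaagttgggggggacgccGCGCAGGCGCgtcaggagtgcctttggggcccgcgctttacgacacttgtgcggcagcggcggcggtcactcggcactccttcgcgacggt
Ppp6r3: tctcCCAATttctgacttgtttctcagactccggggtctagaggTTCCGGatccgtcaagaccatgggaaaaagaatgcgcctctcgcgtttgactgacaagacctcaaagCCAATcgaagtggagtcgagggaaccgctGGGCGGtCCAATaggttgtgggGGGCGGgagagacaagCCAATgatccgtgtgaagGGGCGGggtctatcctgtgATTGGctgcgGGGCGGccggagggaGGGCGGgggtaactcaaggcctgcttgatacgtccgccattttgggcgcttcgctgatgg
Ppp1r9b: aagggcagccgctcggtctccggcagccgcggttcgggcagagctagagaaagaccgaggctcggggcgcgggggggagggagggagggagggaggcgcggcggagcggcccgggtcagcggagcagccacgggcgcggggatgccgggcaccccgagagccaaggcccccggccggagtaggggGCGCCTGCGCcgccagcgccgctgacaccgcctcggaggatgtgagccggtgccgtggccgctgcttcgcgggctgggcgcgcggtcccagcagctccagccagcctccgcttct
The Ppp5c window held 2 GC boxes, 1 CCAAT box and 1 NRF1 match, and the Ppp6r3 window held 5 GC boxes, 5 CCAAT boxes and 1 ETS core. The window of Ppp1r9b, a gene that fell, held 1 NRF1 match and none of the other motifs. RefSeq windows were matched for 59 of 74 members, 35 of them tested and 8 called. Among the 35 tested members 88.6% held a GC box, against 72.1% of 5398 promoters of tested genes, and 28.6% held an NRF1 match, against 16.6%. A CCAAT box was found in 31.4% and 38.7%, an ETS core in 22.9% and 31.0%, a TATA box in 5.71% and 5.59% and an E-box in 0 of 35 and 11.0%. The median number of CpG dinucleotides was 29 in the tested members and 24 in all tested genes. Of the 8 called members with a window, 6 held a GC box, 4 a CCAAT box, 3 an ETS core and 3 an NRF1 match, with both directions of change among the carriers of GC box and NRF1 matches. Over all 16506 promoters of protein-coding genes the share with a GC box was 48.2%, and with an NRF1 match 9.23%.

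PP5 showed the largest change of the family. Ppp5c (chromosome 7, 17004640 to 17027924, minus strand, GRCm38) encodes the enzyme PP5, whose tetratricopeptide repeats bind the chaperone Hsp90. It reached 101 and 105 CPM in 1-nitropyrene libraries, against 66.4 and 67.2 CPM in controls. Both treated libraries lay far above both controls, with a gap many times the difference within either group. The means were 103 ± 2.55 CPM with 1-nitropyrene and 66.8 ± 0.571 CPM in control (SD, n = 2 each). On the log2 scale the rise was 0.62 (SE 0.07, adjusted p = 3.64e-18), or 1.54-fold with a 95% interval of 1.40 to 1.69. No exon of Ppp5c overlaps a gene on the opposite strand, and leaving out any single library kept the value between 0.60 and 0.65.

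**Figure D2:**
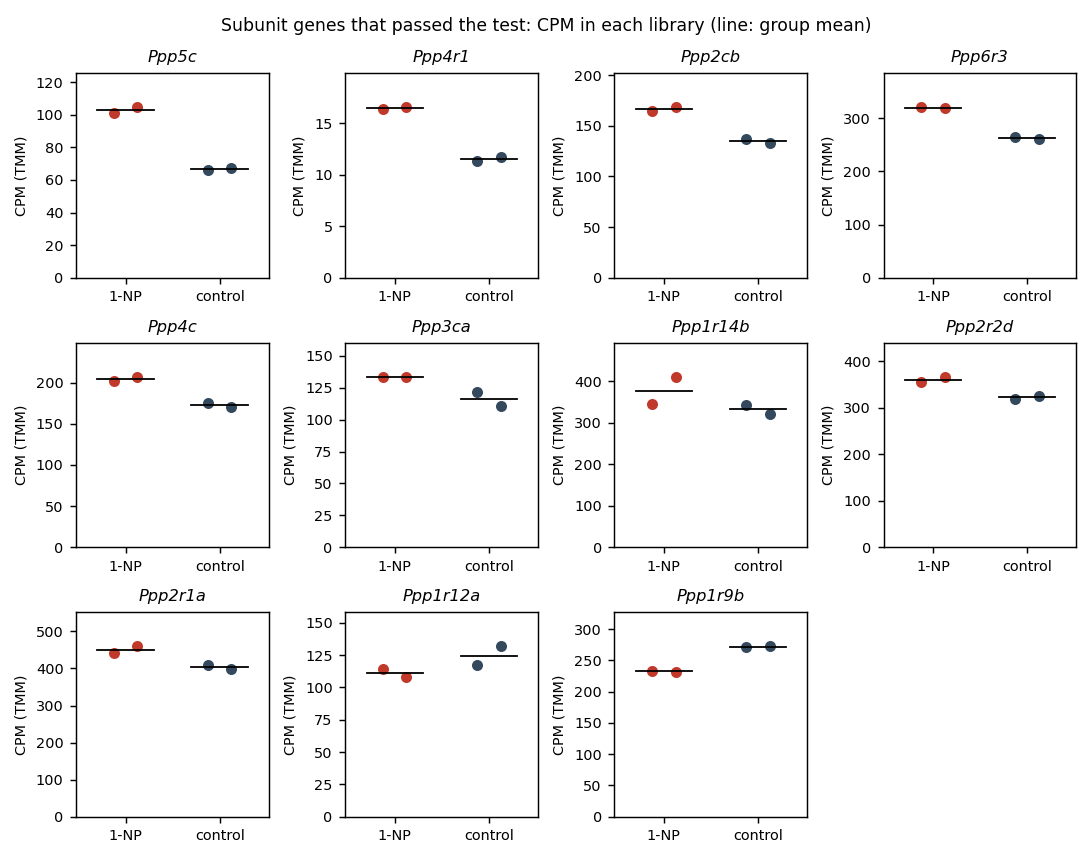
TMM-scaled CPM in each library for the 11 subunit genes that passed the test, 1-nitropyrene (1-NP, red) left and control (dark) right in each panel, with the group mean as a line and every axis starting at 0. The groups are well apart for Ppp5c (101 and 105 against 66.4 and 67.2 CPM) and nearly touch for Ppp1r14b.

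In PP2A, the changes fell on the second catalytic gene, the main scaffold and a B55 subunit. Ppp2cb, the beta catalytic isoform, had 165 and 168 CPM with 1-nitropyrene, against 137 and 133 CPM in control. The groups did not overlap, and the rise was 0.30 on the log2 scale (SE 0.05, adjusted p = 1.87e-07, 1.23-fold). Its close relative Ppp2ca, the alpha isoform, had 430 and 409 CPM with 1-nitropyrene and 403 and 405 CPM in control. That difference did not pass the test (log2 fold change 0.06, SE 0.04, adjusted p = 0.279), with a 95% interval of the ratio from 0.990 to 1.09 and values of 0.02 to 0.09 when 1 library was left out. Exons of Ppp2ca share 3093 bases with a gene on the other strand, 9430098F02Rik, which was listed at 0.

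As a share of PP2A catalytic counts, which needs no library scaling, Ppp2cb held 27.7% and 29.2% with 1-nitropyrene (exact binomial 95% intervals 26.5 to 28.9% and 27.9 to 30.5%). In control it held 25.4% and 24.7% (24.3 to 26.5% and 23.3 to 26.1%). The treated shares lay above the control shares, by 3.39 percentage points between the means. An exact two-sided permutation test over 2 against 2 libraries cannot go below p = 0.333, the value found here. These intervals describe counting error within each library alone, not the spread between libraries. Whether PCR copies of a molecule were counted as separate reads is not given in the sources used here. If they were, the intervals are too narrow even for counting error.

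The PP2A scaffold holds the catalytic and B subunits together. Ppp2r1a, the alpha scaffold, had 442 and 460 CPM with 1-nitropyrene, against 409 and 400 CPM in control, a rise of 0.16 (SE 0.04, adjusted p = 0.000125). The beta scaffold Ppp2r1b had 37.1 and 39.5 CPM with 1-nitropyrene and 36.6 and 44.4 CPM in control, with overlapping groups (log2 fold change -0.05, SE 0.10, adjusted p = 0.742). Its direction turned to 0.06 without control replicate 2. Ppp2r1b also shares 1429 exon bases with Sik2 on the opposite strand, which had 847 counts in all, and its reads could not be told apart from those of Sik2 if strand was not used in counting. Ppp2r1a made up 92.2% and 92.1% of scaffold counts in treated libraries, against 91.8% and 90.0% in controls.

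B55 subunits steer PP2A to substrates at the exit from mitosis. Ppp2r2d (B55 delta) had 354 and 366 CPM with 1-nitropyrene, against 318 and 326 CPM in control, a rise of 0.16 (SE 0.04, adjusted p = 0.000222). Its more abundant relative by counts, Ppp2r2a (B55 alpha), had 465 and 460 CPM with 1-nitropyrene and 441 and 450 CPM in control. Both treated values were the higher, but the difference of 0.06 (SE 0.03) did not pass (adjusted p = 0.247). The remaining B55 genes Ppp2r2b and Ppp2r2c were listed at 0.

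None of the 5 B56 genes passed the test in the fit reported here, and they did not point the same way. An unadjusted p under 0.05 was found for 4 of them, against 34.3% of all genes and 44.6% of those averaging 10 CPM or more. B56 subunits bind a short linear motif in their targets and include tumour-suppressing forms of PP2A. Ppp2r5a had 13.1 and 15.4 CPM with 1-nitropyrene, against 17.0 and 19.8 CPM in control (log2 fold change -0.35, SE 0.15, adjusted p = 0.0834). Ppp2r5b had 52.7 and 53.5 CPM with 1-nitropyrene, against 61.5 and 60.3 CPM in control (-0.20, SE 0.08, adjusted p = 0.0528). Ppp2r5a and Ppp2r5b were not followed by gene under other settings. In the fit limited to genes averaging 10 CPM or more, 4 members were called lower. They were Ppp1r9b, Ppp1r12a, Ppp2r5c and either Ppp2r5a or Ppp2r5b, since all other members of that level with a fall were followed and not called. Which of them it was is not given. Ppp2r5c and Ppp2r5d also had both treated values below both controls, with log2 fold changes of -0.09 and -0.07. Ppp2r5c was called without library scaling (-0.12, adjusted p = 0.038) and in the fit limited to genes averaging 10 CPM or more (-0.12, adjusted p = 0.0398). Ppp2r5d ranged from -0.11 to -0.03 when 1 library was left out. Ppp2r5e alone lay on the other side, at 155 and 144 CPM with 1-nitropyrene and 132 and 143 CPM in control (0.13, SE 0.05, adjusted p = 0.0625). It was called without 1-nitropyrene replicate 3 (0.18, adjusted p = 0.018) and with protein-coding genes only (adjusted p = 0.0456), and stood at 0.07 without control replicate 1 or without 1-nitropyrene replicate 2. In shares of the 5 genes' counts, Ppp2r5e held 31.7% and 29.9% with 1-nitropyrene and 26.7% and 28.0% in control, while Ppp2r5b held 10.8% and 11.1% with 1-nitropyrene and 12.4% and 11.8% in control. Neither pair of shares overlapped between groups, at the same smallest p = 0.333 of the exact permutation test. Among the B'' genes, Ppp2r3a and Ppp2r3c were tested and not called.

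**Figure D3:**
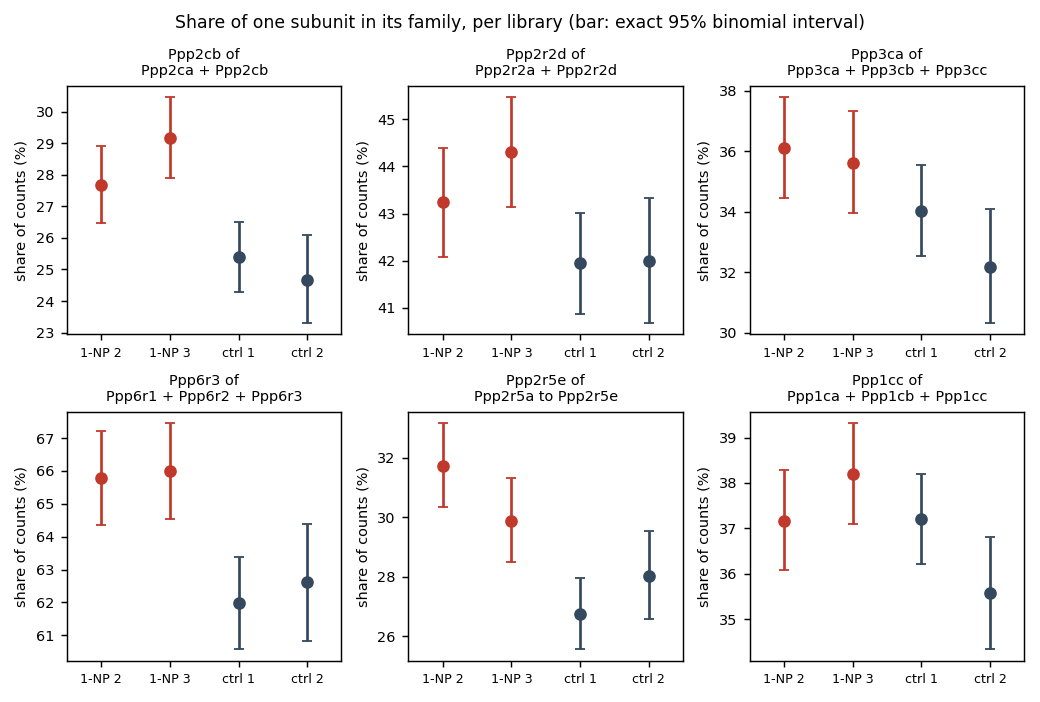
Share of counts (%) held by 1 subunit within its family in each library, 1-nitropyrene replicates (red) left of control replicates (dark), with exact 95% binomial intervals; the axes do not start at 0. Ppp2cb (27.7% and 29.2% against 25.4% and 24.7%) and Ppp6r3 (65.8% and 66.0% against 62.0% and 62.6%) are higher in both treated libraries, and the Ppp1cc shares overlap.

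Of the 3 catalytic genes of PP1, 0 passed the test in the main edgeR fit or in DESeq2. An unadjusted p under 0.05 was found for 1 of them, Ppp1cc, against 34.3% of all genes and 44.6% of those averaging 10 CPM or more. Ppp1ca (PP1 alpha) had 327 and 330 CPM with 1-nitropyrene and 325 and 318 CPM in control, a ratio of 1.02 with a 95% interval of 0.968 to 1.08. Ppp1cb (PP1 beta, the form in myosin phosphatase) had 215 and 212 CPM with 1-nitropyrene and 211 and 216 CPM in control, a ratio of 1.00 with an interval of 0.942 to 1.07. The direction of both was unstable, turning to -0.00 for Ppp1ca and -0.03 for Ppp1cb on the log2 scale without library scaling, and to -0.01 for Ppp1cb without control replicate 1 or without 1-nitropyrene replicate 2.

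Ppp1cc (PP1 gamma) had 321 and 335 CPM with 1-nitropyrene, against 318 and 295 CPM in control (log2 fold change 0.09, SE 0.04, adjusted p = 0.0625). With protein-coding genes only it was called by edgeR (0.10, adjusted p = 0.0434). It passed when control replicate 1 (0.15, adjusted p = 0.0261) or replicate 2 of the 1-nitropyrene group (0.12, adjusted p = 0.037) was left out. Its counts are uncertain because a processed copy on chromosome 7, Ppp1ccb, matches the 1011 coding bases of Ppp1cc with 0 differences. The first 90 coding bases, with the start codon in capitals, show a stretch whose reads match both genes equally:
Ppp1cc: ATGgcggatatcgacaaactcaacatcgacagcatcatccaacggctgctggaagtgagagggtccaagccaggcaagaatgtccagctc
Ppp1ccb: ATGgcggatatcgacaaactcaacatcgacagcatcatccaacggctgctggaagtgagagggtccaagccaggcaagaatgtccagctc
Of the 50-base stretches of Ppp1cc transcripts, 40.0% also occur in transcripts of other genes, 38.9% in Ppp1ccb. The 2 genes summed to 395 and 411 CPM with 1-nitropyrene and to 380 and 362 CPM in control.

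PP1 regulators made up 39 of the 74 members, and 14 were tested. Ppp1r9b encodes spinophilin, an actin-binding scaffold that brings PP1 to the membrane skeleton. It had 234 and 232 CPM with 1-nitropyrene, against 271 and 272 CPM in control, so the groups were far apart relative to their spread. The log2 fold change was -0.22 (SE 0.04, adjusted p = 2.99e-06), a ratio of 0.857. No opposite-strand exon overlaps this gene, and the value stayed between -0.23 and -0.22 when any 1 library was left out.

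Ppp1r12a encodes MYPT1, which carries PP1 to myosin. It had 115 and 108 CPM with 1-nitropyrene, against 117 and 132 CPM in control (-0.15, SE 0.06, adjusted p = 0.0437). This call ended on leaving out control replicate 2 (-0.08, adjusted p = 0.541) or replicate 3 of the 1-nitropyrene group (-0.10, adjusted p = 0.299) and in DESeq2 (adjusted p = 0.269), and the value was -0.24 without control replicate 1. Its relatives were not called: Ppp1r12c had 14.1 and 12.1 CPM with 1-nitropyrene and 14.3 and 14.9 CPM in control (-0.14, SE 0.17, adjusted p = 0.58, and -0.04 without 1-nitropyrene replicate 3), and Ppp1r12b held 47 counts in all.

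Ppp1r14b encodes a phosphorylation-dependent inhibitor of PP1. It had 344 and 410 CPM with 1-nitropyrene, against 342 and 321 CPM in control, with the lower treated value almost at the higher control value. Its rise of 0.18 (SE 0.04, adjusted p = 2.28e-05) rested on replicate 3 of the treated group. Without that library the value was 0.05 (adjusted p = 0.518), without 1-nitropyrene replicate 2 it was 0.30, and DESeq2 gave an adjusted p of 0.414. The pooled spread of the fit took no account of this gene's own scatter. Other genes share 21.7% of the 50-base stretches of Ppp1r14b transcripts, mainly Gm7332.

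The other PP1 regulators tested were not called. Ppp1r13b (ASPP1, a partner of p53) had 25.2 and 29.4 CPM with 1-nitropyrene and 27.7 and 32.1 CPM in control, with overlapping groups. Ppp1r37 had 16.0 and 15.5 CPM with 1-nitropyrene and 17.8 and 16.1 CPM in control (-0.12, SE 0.15, adjusted p = 0.616). Ppp1r8, a nuclear inhibitor of PP1, had 8.05 and 6.93 CPM with 1-nitropyrene and 5.24 and 6.31 CPM in control (0.40, SE 0.24, adjusted p = 0.228). Ppp1r10 (PNUTS, which brings PP1 to RNA polymerase II) had 2.88 and 4.70 CPM with 1-nitropyrene and 3.86 and 2.72 CPM in control. Ppp1r16a had 4.49 and 5.17 CPM in treated libraries, below the 6.25 and 6.59 CPM of controls, but its adjusted p was 0.277. When 1 library was left out, the log2 fold change ranged from -0.24 to -0.00 for Ppp1r13b, from -0.18 to -0.03 for Ppp1r37 and from 0.25 to 0.51 for Ppp1r8, and none of these was called.

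Several PP1 regulators with general roles were hardly counted. Ppp1r15a, the stress-induced subunit that turns PP1 on the translation factor eIF2, was listed at 0 in all 4 libraries, which allows up to 0.341 and 0.349 CPM with 1-nitropyrene and 0.278 and 0.434 CPM in control at a floor of 3 counts. Ppp1r11 (inhibitor 3) was also listed at 0. Ppp1r7 (SDS22) had 2 and 3 counts with 1-nitropyrene and 4 and 3 counts in control, and Ppp1r2 (inhibitor 2) had 5 and 7 counts with 1-nitropyrene and 8 and 12 counts in control. Of the 7 Ppp1r3 genes, which direct PP1 to glycogen, Ppp1r3e and Ppp1r3f were tested and not called, and 3 were listed at 0.

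Calcineurin is built from a catalytic A and a calcium-binding B chain. Ppp3ca (A alpha) had 134 and 133 CPM with 1-nitropyrene, against 121 and 111 CPM in control, a rise of 0.19 (SE 0.06, adjusted p = 0.00485). The call ended without control replicate 2 (0.13, adjusted p = 0.2) and in DESeq2 (adjusted p = 0.116), and the value was 0.27 without control replicate 1. Ppp3cb (A beta) had 235 and 240 CPM with 1-nitropyrene and 234 and 232 CPM in control (0.02, SE 0.04, adjusted p = 0.76), a difference that turned to -0.01 without library scaling. Ppp3r1, the B chain, had 198 and 191 CPM with 1-nitropyrene and 180 and 182 CPM in control, which did not pass (0.10, SE 0.05, adjusted p = 0.103). Ppp3ca held 36.1% and 35.6% of the A-chain counts in treated libraries and 34.0% and 32.2% in controls. Ppp3r2, a second B chain, was listed at 0.

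In PP4, a phosphatase of the DNA damage response, the catalytic gene and 1 of 4 tested regulators rose. Ppp4c had 202 and 207 CPM with 1-nitropyrene, against 175 and 171 CPM in control (0.24, SE 0.05, adjusted p = 7.11e-06, 1.18-fold). Ppp4r1 was much lower in counts, at 16.4 and 16.6 CPM with 1-nitropyrene and 11.3 and 11.8 CPM in control. It rose by 0.52 (SE 0.17, adjusted p = 0.00937), with replicates close together in each group. That call ended on leaving out control replicate 1 (0.49, adjusted p = 0.136) or replicate 3 of the 1-nitropyrene group (0.52, adjusted p = 0.0533) and in DESeq2 (0.52, adjusted p = 0.148).

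The other PP4 regulators were not called. Ppp4r2 had 35.0 and 37.6 CPM with 1-nitropyrene and 37.2 and 38.1 CPM in control (log2 fold change -0.05), turning to 0.00 without 1-nitropyrene replicate 2. Ppp4r3a had 432 and 413 CPM with 1-nitropyrene and 433 and 426 CPM in control (-0.02), turning to 0.01 without 1-nitropyrene replicate 3, and shares 1301 exon bases with the opposite strand, where its main partner D130020L05Rik had 669 counts. Ppp4r3b had 235 and 252 CPM with 1-nitropyrene, against 221 and 233 CPM in control (0.11, SE 0.04, adjusted p = 0.0618). It was called with protein-coding genes only (0.11, adjusted p = 0.039) and with the older quasi-likelihood method of edgeR (0.11, adjusted p = 0.04996). It passed the test without 1-nitropyrene replicate 2 (0.16, adjusted p = 0.0136). Ppp4r4 was listed at 0.

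PP6 pairs its catalytic chain with a SAPS-domain regulator. Ppp6r3 (chromosome 19, 3454928 to 3575749, minus strand) had 320 and 318 CPM with 1-nitropyrene, against 265 and 260 CPM in control. The rise was 0.28 (SE 0.04, adjusted p = 1.34e-10, 1.21-fold), with replicates in each group within a few CPM. An opposite-strand gene, Gm48696, shares 501 exon bases with it and was listed at 0. Neither the catalytic gene Ppp6c (150 and 151 CPM with 1-nitropyrene, 158 and 156 CPM in control, adjusted p = 0.403) nor Ppp6r1 (153 and 152 CPM with 1-nitropyrene, 147 and 142 CPM in control, adjusted p = 0.334) was called. Ppp6r2 had 13.9 and 11.5 CPM with 1-nitropyrene and 15.4 and 13.3 CPM in control (adjusted p = 0.442), with log2 fold changes from -0.34 to -0.07 when 1 library was left out. As a share of the 3 regulators' counts, Ppp6r3 held 65.8% and 66.0% with 1-nitropyrene and 62.0% and 62.6% in control, 3.60 percentage points apart between the means.

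Levels were compared between genes per length, as CPM of total counts per kilobase of all exons, without TMM scaling. Ppp1ca was the highest catalytic gene, at 128 and 129 with 1-nitropyrene and 130 and 127 in control. Ppp2cb followed, at 111 and 113 with 1-nitropyrene and 94.2 and 91.2 in control, and then Ppp1cc, at 92.6 and 96.8 with 1-nitropyrene and 93.6 and 86.9 in control. Ppp2cb and Ppp1cc overlapped in control but not with 1-nitropyrene. Ppp2ca stood lower, at 56.8 and 54.0 with 1-nitropyrene and 54.3 and 54.6 in control, above Ppp4c at 46.5 and 47.8 with 1-nitropyrene and 41.2 and 40.3 in control.

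Ppp6c, Ppp5c and Ppp3cb formed the next group. Ppp6c had 33.3 and 33.7 with 1-nitropyrene and 35.9 and 35.4 in control. Ppp5c had 31.8 and 33.0 with 1-nitropyrene, above Ppp3cb (26.4 and 26.9), and 21.4 and 21.6 in control, below Ppp3cb (26.8 and 26.6). Ppp1cb and Ppp3ca were lower still. Per kilobase of coding length the order differed, with Ppp2ca first at 459 and 436 with 1-nitropyrene and 439 and 441 in control, and Ppp1ca at 327 and 329 with 1-nitropyrene and 331 and 324 in control. Which part of each transcript the reads covered is not known from a count table. The inhibitor Ppp1r14b was the highest member per exon length, at 223 and 266 with 1-nitropyrene and 226 and 212 in control.

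**Figure D4:**
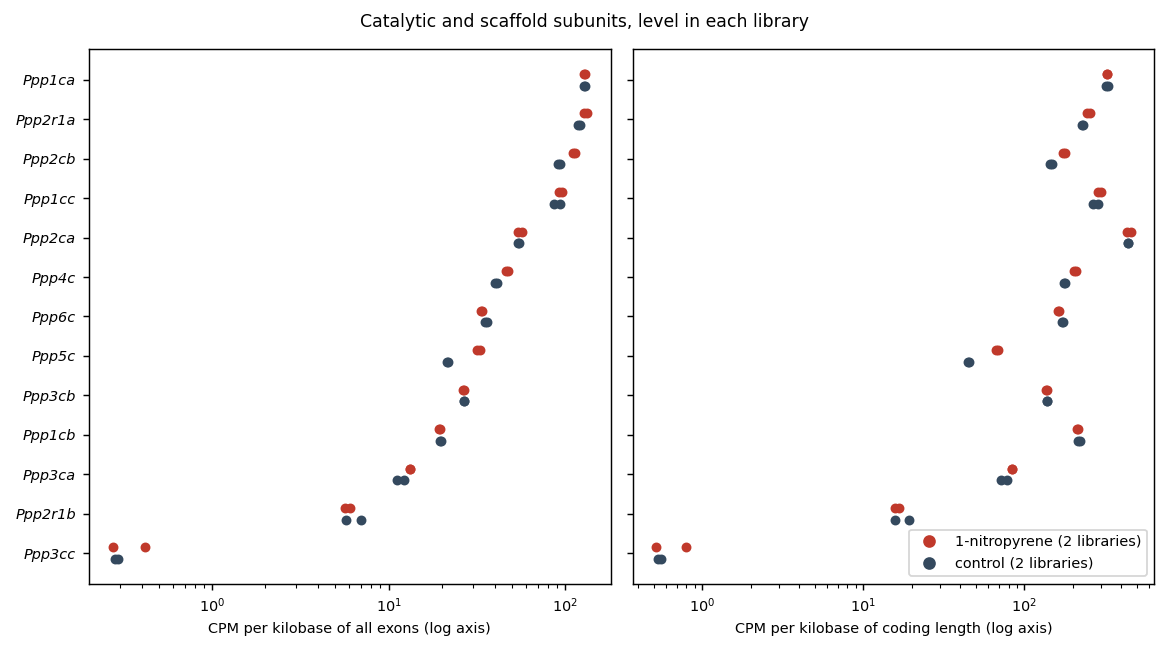
CPM per kilobase of all exons (left) and of coding length (right), on log axes, for the 11 catalytic and 2 scaffold genes, with the 1-nitropyrene libraries (red) above the control libraries (dark) in each row. Rows follow the exon scale, Ppp2ca moves to the right on the coding scale, and the red points of Ppp5c, Ppp4c and Ppp2cb lie to the right of the dark ones on both.

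Genes that act on these enzymes but carry other names were examined as 6 lists of 88 genes in all, of which 62 were tested. Relative to control, 13 rose and 4 fell, against 13.2% and 11.2% of all genes tested. Without library scaling 9 rose and 5 fell, against 11.2% and 13.1% of all genes in that setting. The median log2 fold change of the 62 genes was 0.00 in the main fit. The same 13.2% and 11.2% are the background for the counts of each list below, and no list was tested as a set. The genes below that were not among the 3 of smallest p in their list (Ensa, Arpp19, Ppme1, Lcmt1, Strn and Strn3) were named after their values were seen.

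The list of PP2A maturation, methylation and inhibitor genes had 5 rises and 2 falls among 14 tested. The falls were in the acidic nuclear proteins Anp32a and Anp32e, of which Anp32a is known as an inhibitor of PP2A and Anp32e as a histone chaperone. Anp32a had 59.8 and 65.2 CPM with 1-nitropyrene, against 80.2 and 85.7 CPM in control (-0.40, SE 0.07, adjusted p = 6.83e-07). Anp32e had 19.6 and 21.9 CPM with 1-nitropyrene, against 29.4 and 31.7 CPM in control (-0.55, SE 0.12, adjusted p = 7.76e-05). In both genes the treated values lay below both controls.

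The other PP2A inhibitor of this kind, Set, rose slightly, with 1243 and 1275 CPM with 1-nitropyrene and 1194 and 1175 CPM in control (0.09, SE 0.03, adjusted p = 0.00523). The call ended on leaving out control replicate 2 (adjusted p = 0.0766) or replicate 3 of the 1-nitropyrene group (adjusted p = 0.128) and without library scaling (0.06, adjusted p = 0.1). Ensa and Arpp19, inhibitors of the B55 form of PP2A in mitosis, rose by 0.21 and 0.18, and Ppme1 and Lcmt1, which remove and add the methyl group of the PP2A catalytic chain, by 0.29 and 0.51. All 4 of these calls were lost in DESeq2 (adjusted p between 0.14 and 0.299). Leaving out 1 library gave adjusted p-values up to 0.123 for Ensa, 0.322 for Arpp19, 0.413 for Ppme1 and 0.249 for Lcmt1.

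In the STRIPAK complex, which couples PP2A to kinases of the germinal centre family, 3 of 13 tested genes rose and 1 fell. The striatins are the B-type subunits of this complex. Strn4 had 155 and 154 CPM with 1-nitropyrene, against 108 and 114 CPM in control (0.48, SE 0.06, adjusted p = 1.91e-16). Strn had 4.03 and 4.47 CPM with 1-nitropyrene, against 8.19 and 7.88 CPM in control (-0.92, SE 0.26, adjusted p = 0.00219), a call that ended without control replicate 1 (-0.89, adjusted p = 0.0552) and in DESeq2 (adjusted p = 0.0733). Another striatin, Strn3, had 183 and 179 CPM with 1-nitropyrene and 180 and 182 CPM in control. It was not called (-0.002, SE 0.05, adjusted p = 0.985). The adaptor Pdcd10 rose by 0.38 (SE 0.06) and the kinase Stk24 by 0.37 (SE 0.09).

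Among calcineurin regulators and NFAT genes 3 of 9 tested rose and 0 fell. Rcan1, an inhibitor of calcineurin, had 20.2 and 21.5 CPM with 1-nitropyrene, against 14.2 and 12.8 CPM in control (0.62, SE 0.15, adjusted p = 0.00035). Calm3, a calmodulin gene, had 52.2 and 46.5 CPM with 1-nitropyrene and 37.6 and 37.7 CPM in control (0.39, SE 0.09, adjusted p = 0.00026). Chp1, a relative of the calcineurin B chain, rose by 0.29 (SE 0.10, adjusted p = 0.0183), a call that ended without control replicate 1 (adjusted p = 0.187), control replicate 2 (adjusted p = 0.0704) or 1-nitropyrene replicate 2 (adjusted p = 0.0994).

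Of 10 PP1-binding genes outside the Ppp1r names, 0 rose and Zfyve9, an endosomal anchor of SMAD proteins, fell by 0.32 (SE 0.13, adjusted p = 0.0489), a call lost on leaving out any 1 library (adjusted p between 0.0516 and 0.289). Of 14 genes for PP2C and other phosphatases 2 rose. The mitochondrial phosphatase Pgam5 had 64.6 and 61.8 CPM with 1-nitropyrene, against 48.2 and 41.7 CPM in control (0.47, SE 0.08, adjusted p = 2.95e-07), and the nuclear Ppm1g had 489 and 501 CPM with 1-nitropyrene, against 440 and 446 CPM in control (0.16, SE 0.03, adjusted p = 3.75e-05). The 2 tested ankyrin subunits of PP6 were not called.

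**Figure D5:**
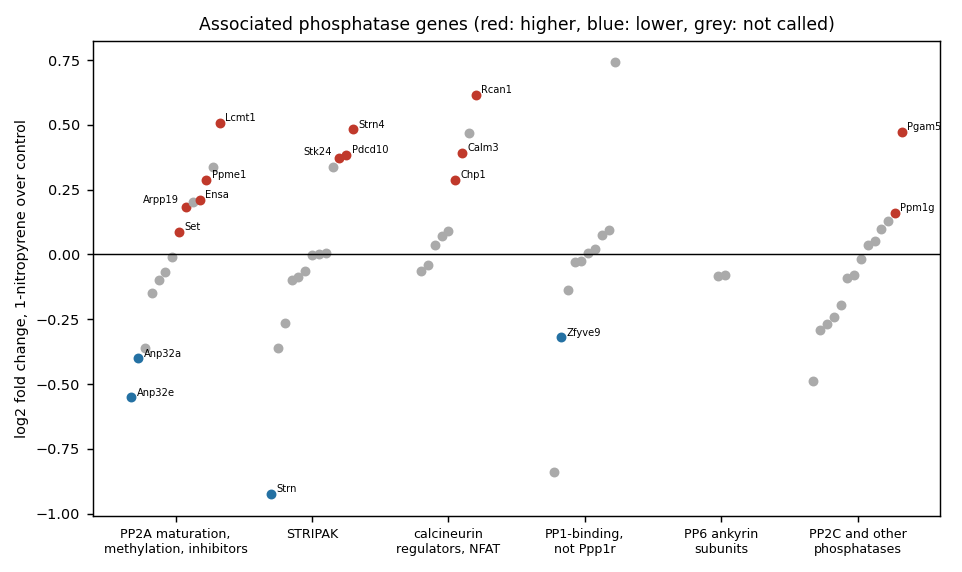
Log2 fold change with 1-nitropyrene over control of the 62 associated genes tested, ordered by size within each of the 6 lists, with called genes named. Strn4 (0.48) and Strn (-0.92), members of the same complex, lie at opposite ends of their list. Strn3 (-0.002), not called, lies between them.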

How the data were processed

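The authors deposited raw read counts per gene for the 4 libraries, with no normalization. DESeq2, featureCounts 1.6.3 and HISAT2 2.1.0 stand in the submitters' processing notes with the build GRCm38 (mm10) but without roles. The library kit was stranded, per the labels' protocols. Not given in the sources used here: annotation release, strand setting and handling of multiply mapped reads.

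Symbols, coordinates and lengths came from GENCODE M21 (GRCm38), matched to 53360 of 53465 identifiers. A further 12 pseudogene or antisense entries with such symbols were left out, and 1 gene of the symbol pattern is not reported here. Counts were filtered with filterByExpr (7738 genes), scaled with TMM (factors 0.989 to 1.01) and tested with edgeR 4.0.16 in R 4.3.3 (quasi-likelihood, legacy set to FALSE, model of intercept and treatment, two-sided). The negative binomial dispersion was 1 value for every gene (biological coefficient of variation 2.34%). The quasi-likelihood spread on top of it could vary with a gene's mean level. With infinite prior degrees of freedom, that spread was pooled over genes and took nothing from a gene's own scatter. Standard errors are the absolute log2 fold change over the square root of F. Adjusted p-values are Benjamini-Hochberg over all genes tested, and values under 0.05 were called.

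A chi-square test over counts gave 2.05 per degree of freedom between the treated libraries, 1.62 between the controls and 9.43 to 11.6 across groups, so no libraries were merged. Alternatives were other scalings, filters and tests (DESeq2 1.42.0, limma 3.58.1) and each library left out, the lone library then being assumed to vary like the other pair.

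Named genes were all catalytic and scaffold genes, Ppp1r15a, every called member, up to 4 further members of highest CPM per enzyme, the untested member of most counts, and up to 3 called genes per associated list. Other members and Ppp1ccb were named after their values were seen. Members and lists were chosen with earlier results of these data known.

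Promoters were RefSeq windows on GRCm38.p6. Protein features were planned but not analysed here.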

Additional observations from a re-analysis of the deposited data

How the results depend on the processing

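Of the 11 called subunit genes, Ppp5c, Ppp6r3, Ppp2cb, Ppp1r9b, Ppp4c, Ppp2r1a and Ppp2r2d kept direction and call under all 15 alternatives, and Ppp1r12a, Ppp1r14b, Ppp3ca and Ppp4r1 lost the call in 15 instances between them. With all counted genes in the fit Ppp1r12a also lost it (adjusted p = 0.209), as it did in limma-voom (0.102) and with protein-coding genes only (0.0547), and Ppp1r14b without a filter (0.0844). Against 9 subunit rises, there were 6 in DESeq2 and 12 with protein-coding genes only, and 8 to 11 when 1 library was left out. Against 2 falls, there were 4 without library scaling and at a mean of at least 10 CPM, and 1 without a filter, in DESeq2, in limma-voom, at an adjusted p under 0.01 and with protein-coding genes only, and 1 to 2 when a library was left out. Against 1024 rises and 870 falls over all genes, DESeq2 called 514 and 316, the fit without a filter 532 falls and the stricter threshold 568 falls. Leaving out 1 library gave 690 to 861 rises and 511 to 647 falls. Associated genes, 13 up and 4 down, numbered 8 and 2 in DESeq2, against 6.64% and 4.08% of all genes. Small uncalled log2 fold changes that turned were Ppp1ca (-0.00043 without scaling), Ppp1cb (-0.0093 with upper quartile scaling, -0.027 without scaling, -0.019 at a mean of at least 10 CPM, -0.00041 in DESeq2, -0.013 without control replicate 1, -0.0053 without 1-nitropyrene replicate 2, range -0.013 to 0.013 when a library was left out), Ppp2r1b (0.063 without control replicate 2, range -0.21 to 0.063), Ppp3cb (-0.00703 without scaling), Ppp4r2 (0.0021 without 1-nitropyrene replicate 2, range -0.10 to 0.0021) and Ppp4r3a (0.0066 without 1-nitropyrene replicate 3, range -0.058 to 0.0066). The cause was not tested. No paired analysis was possible because the groups share only replicate number 2. Counts of a few CPM limit most PP1 regulators: intervals of the ratio ran from 0.376 to 1.58 for Ppp1r12b.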

Other observations

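Ppp1ccb, annotated as a processed pseudogene and therefore not among the subunit genes, had 642 and 649 counts with 1-nitropyrene and 679 and 471 counts in control. Its log2 fold change was 0.22 (SE 0.07, adjusted p = 0.0174, edgeR), against 0.09 for Ppp1cc, whose coding bases it shares. The remaining 11 pseudogene or antisense entries with phosphatase subunit symbols held between 0 and 1 counts per library.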
